A study of Mus musculus with 31 samples.

Results

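The genes described here encode the sarcomere, the repeating contractile unit of striated muscle, apart from the myosin heavy chains. They were chosen by name, as a list of 46 genes, and all 46 were found among the 22609 genes counted in every library. Each of the 46 had at least 10 reads in at least 3 of the 31 libraries, a minimum that 15526 of all genes passed. The libraries were bulk poly(A) RNA-seq of the left masseter, a jaw-closing muscle, from male C57BL/6J mice that the study's methods give as 2 to 4 months old. Each mouse had received an intramuscular injection of 10 µl. Complete Freund's adjuvant (CFA), an oil emulsion of killed mycobacteria that raises local inflammation, was followed for 1 day (CFA 1d, n = 3) or 5 days (CFA 5d, n = 3), with a vehicle group of its own (n = 3). Collagenase type 2 (Col), an enzyme preparation that digests collagen of the extracellular matrix, was given at 0.2U (groups labelled 1C and RPC, n = 4 each) or at 10U (groups labelled 2d, n = 4, 6d, n = 3, and 12d, n = 4), again with a vehicle group of its own (n = 3). The labels do not say which days 1C and RPC stand for. They also give no day for either vehicle group, so no comparison with vehicle is known to be matched in time. For the 10U groups labelled 2d and 12d the study's methods name day 1 and a day 2 days after the labelled 12d, and the labels are followed here. Each library was taken as 1 mouse, so p-values measure the spread between mice.

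In the sarcomere, thin filaments of actin, held by tropomyosin and the troponin complex, slide past thick filaments of myosin. Titin and the M-band proteins centre the thick filament, and the Z-disc anchors the thin filaments of neighbouring sarcomeres. Many of these proteins exist as isoforms from separate genes: fast-fibre, slow-fibre and developmental or cardiac forms. Developmental isoforms such as cardiac actin (Actc1) and cardiac troponin T (Tnnt2) are expressed in embryonic skeletal muscle and again in newly formed fibres after muscle injury. The masseter of the mouse is composed almost entirely of fast fibres.

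The 250 bases before the transcription start are shown for the adult and the cardiac actin genes, whose levels parted at 6d after 10U Col, and for 4 of the 5 genes with the largest rises at 6d. They are RefSeq promoters on GRCm38.p6, written 5′ to 3′ on the gene's own strand. Capitals mark a CArG box, the site read by serum response factor, in the actin promoters and E-boxes, the sites read by the myogenic bHLH factors, in the other 4.
Acta1 promoter, chr8:123894776-123895025, minus strand: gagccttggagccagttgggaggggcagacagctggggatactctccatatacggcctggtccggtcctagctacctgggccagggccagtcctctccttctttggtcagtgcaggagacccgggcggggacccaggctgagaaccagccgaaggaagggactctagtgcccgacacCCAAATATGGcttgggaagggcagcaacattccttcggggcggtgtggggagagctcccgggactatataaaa
Actc1 promoter, chr2:114052876-114053125, minus strand: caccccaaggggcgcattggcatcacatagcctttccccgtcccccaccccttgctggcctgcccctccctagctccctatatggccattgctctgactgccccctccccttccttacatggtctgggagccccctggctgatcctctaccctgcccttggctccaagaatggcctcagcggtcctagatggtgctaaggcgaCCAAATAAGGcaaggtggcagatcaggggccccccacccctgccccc
Tnnt1 promoter, chr7:4515976-4516225, minus strand: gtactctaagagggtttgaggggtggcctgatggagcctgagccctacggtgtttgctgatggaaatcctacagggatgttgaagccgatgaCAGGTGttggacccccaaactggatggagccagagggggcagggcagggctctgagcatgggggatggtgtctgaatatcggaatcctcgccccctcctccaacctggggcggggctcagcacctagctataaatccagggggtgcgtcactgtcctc
Tnni1 promoter, chr1:135799171-135799420, plus strand: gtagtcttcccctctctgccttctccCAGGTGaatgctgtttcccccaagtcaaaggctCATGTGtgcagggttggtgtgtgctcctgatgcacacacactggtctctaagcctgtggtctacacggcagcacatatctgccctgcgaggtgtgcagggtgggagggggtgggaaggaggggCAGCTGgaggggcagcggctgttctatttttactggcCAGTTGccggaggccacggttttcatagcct
Tnnt2 promoter, chr1:135836084-135836333, plus strand: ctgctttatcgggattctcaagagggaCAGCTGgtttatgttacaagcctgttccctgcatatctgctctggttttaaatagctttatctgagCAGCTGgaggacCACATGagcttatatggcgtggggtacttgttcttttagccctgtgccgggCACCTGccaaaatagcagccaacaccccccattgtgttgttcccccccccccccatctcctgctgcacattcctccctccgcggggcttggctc
Mybph promoter, chr1:134193198-134193447, plus strand: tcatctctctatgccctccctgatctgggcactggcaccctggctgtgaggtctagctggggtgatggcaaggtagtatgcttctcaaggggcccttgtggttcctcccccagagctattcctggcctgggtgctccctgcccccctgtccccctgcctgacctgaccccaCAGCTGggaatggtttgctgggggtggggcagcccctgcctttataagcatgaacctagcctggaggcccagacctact
RefSeq promoters, here 250 bases before to 50 after a start, were at hand for 34 of the 46 members, 44 promoters in all, and each motif was searched on both strands. The E-box, searched as CANNTG, was found in 81.8% of the member promoters and in 72.3% of 32851 promoters of the same length. A CArG box was found in 15.9% of member promoters and 1.63% of all promoters, and a MEF2 motif in 9.09% and 3.19%. The TATAAA box was found in 13.6% of both. These shares describe letters in a window and say nothing of binding.

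The libraries held 14843778 to 29076671 reads on genes, and the 46 members took 5.49% to 17.4% of them. The sum of 9 skeletal muscle fibre genes outside the sarcomere (Ckm, Mb, Pygm and others) was at least 13460 CPM (read counts scaled to a fixed library total) in every library, and heart markers summed to at most 5.14 CPM. Skeletal muscle was thus present in every library, though not alone. The salivary gland sum exceeded that of the fibre genes in some libraries, as in the 2nd of RPC (282677 against 54372 CPM) and in every CFA 5d library. Salivary gland markers differed widely between libraries, from 10.9 to 282677 CPM, and were at 128536 to 160676 CPM in CFA 5d, 24899 to 282677 CPM in RPC and 85.2 to 143515 CPM in Col vehicle. They were at most 343 CPM in 6d and 12d. The share of ambiguous reads was 0.331% to 0.399% in the 11 10U libraries and 0.0757% to 0.138% in the other 20, a difference in processing or library that cannot be told apart from the 10U treatment when 10U groups are set against vehicle. The 4th library of 2d and the 4th of 12d stood apart from the others of their groups, and results that rest on them are given with and without them. The 5 Col groups shared 1 set of vehicle libraries, and the 2 CFA groups another, so counts from those comparisons are not independent of each other.

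In the vehicle muscles, levels per exon length (RPKM, library-scaled reads per kilobase of exon, computed from CPM) followed the fast-fibre make-up. Skeletal actin (Acta1) was highest, with a mean of 29733 RPKM in CFA vehicle and 22312 in Col vehicle. In Col vehicle it was followed by the fast troponins Tnnc2 (13668) and Tnnt3 (12925), the fast regulatory light chain Mylpf (11779) and the fast troponin Tnni2 (6277). Most slow and developmental isoforms were at the other end, although the slow Mybpc1 (523 RPKM) and the developmental or cardiac Csrp3 (110) and Actc1 (66.2) were not. Mean levels in Col vehicle were 2.86 RPKM for Tnnt1, 2.46 for Tnnc1, 1.67 for Mybph, 1.13 for Tnni1, 1.0 for Myl4, 0.823 for Tnnt2, 0.552 for Myl3 and 0.431 for Myl2. Nebulette (Nebl), the heart paralogue of nebulin, was lowest at 0.0604 RPKM. The order of Tnnc2, Tnnt3 and Mylpf did not exceed the spread between mice, since their library values overlapped.

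Each group was compared with its own vehicle group to ask how sarcomere transcripts changed in inflamed and in collagenase-injured muscle. Log2 fold changes and their standard errors (SE) are from edgeR's quasi-likelihood test over all genes, and a member is called changed at a Benjamini-Hochberg adjusted p under 0.05. The median log2 fold change of the members was -0.21 in CFA 1d, -0.29 in CFA 5d, -0.34 in 1C, -0.32 in RPC, -0.72 in 2d, -0.54 in 6d and -0.01 in 12d, while the median of all genes lay between -0.02 and 0.02 in those comparisons. At 2d, 0 of 46 members rose and 6 fell, where 1.14% of all 14373 genes rose and 1.08% fell. At 6d, 10 rose and 11 fell, with a background of 14.0% of genes higher and 13.3% lower. In 12d against vehicle no member was called (background 0.762% higher and 0.466% lower). An unadjusted p under 0.05 was found for 8 of 46 members and for 2461 of 14176 genes, and DESeq2 called 2 members higher and 1 lower. Counts called by DESeq2 or under another scaling, here and below, are given without the share over all genes under that setting. Asking also for a fold over 2 and a mean over 1 RPKM left 6 lower at 2d (background 0.946% higher and 0.821% lower), 9 higher and 11 lower at 6d (background 8.22% and 7.34%) and 9 higher in 6d against 2d (background 3.02% and 2.36%). In 12d, 4 members lay above and 3 below every vehicle library, where 9.62% and 7.48% of all genes did.

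**Figure D1:**
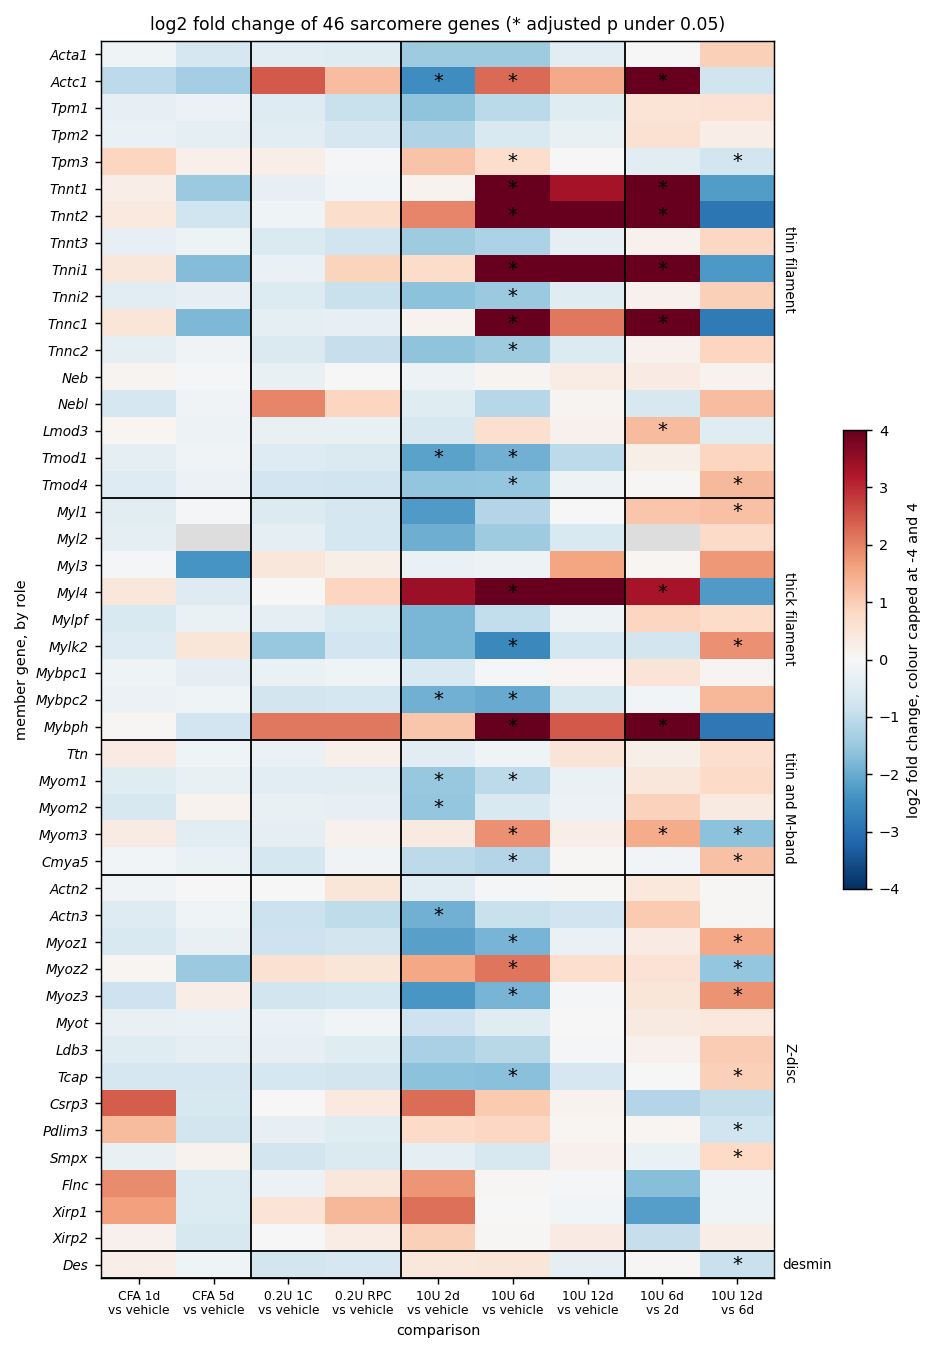
Colour gives the log2 fold change of each of the 46 genes (y axis, by role) in 9 comparisons (x axis), capped at -4 and 4, with a star where the adjusted p from edgeR was under 0.05 and grey where the gene was not tested. The stars lie in the 10U columns: 6 at 2d against vehicle, 21 at 6d against vehicle, 9 in 6d against 2d and 13 in 12d against 6d.

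Neither CFA group nor either 0.2U group had a called member. In CFA 1d, where 0% of all genes were called, 6 members and 588 genes had an unadjusted p under 0.05, and DESeq2 called 1 member, Csrp3. In CFA 5d, 0 of the 45 members tested were called against a background of 1.06% of genes higher and 0.0428% lower (0.877% and 0.0428% with a fold over 2 and a mean over 1 RPKM). There 4 members and 1964 of 14026 genes had an unadjusted p under 0.05, and DESeq2 called 1 member, Actc1. In 1C, 14 members and 1820 of 14493 genes had an unadjusted p under 0.05, and DESeq2 called 3 members higher and 6 lower. In RPC, 17 members and 1924 of 14269 genes had an unadjusted p under 0.05, and DESeq2 called 1 member higher and 11 lower. edgeR called 0% of all genes in both 0.2U comparisons, a share that is no background for the DESeq2 counts. In CFA 5d 2 of 45 members lay below every vehicle library, against 5.58% of all genes. In each 0.2U comparison 13 of the 46 members (28.3%) were lower in every treated than in every vehicle library, against 5.96% of all genes in 1C and 7.17% in RPC. Higher in every treated library were 2 members in 1C and 0 in RPC, against 4.31% and 4.93% of all genes. The fibre genes outside the sarcomere had a median sum of 58914 CPM in 1C and 58642 in RPC, against 107217 in vehicle. Keratinocyte markers summed to 271 to 531 CPM in 1C and 102 to 454 in RPC, against 51.8 to 145 in vehicle. Fat markers were at 424 to 1992, 623 to 971 and 330 to 480 CPM in the same order. The part of these tissues in the member levels was not tested.

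Of the 10 members that rose at 6d, 6 were thin filament genes, Tnnt2 among them with the largest rise of all, 7.17 on the log2 scale. The slow troponins Tnnt1 and Tnni1, the slow and cardiac troponin Tnnc1 and the cardiac troponin Tnnt2 together form the subunits that bind tropomyosin, block the actin surface and sense calcium in slow or immature muscle. Tnnt2 was at 0.512, 0.541 and 1.42 RPKM in the 3 Col vehicle mice, at 4.44, 3.56, 4.87 and 0.638 in 2d, at 161, 147 and 65.2 in 6d, and at 1.30, 1.27, 2.83 and 61.0 in 12d. Tnni1 was at 2.04, 0.389 and 0.970 RPKM in vehicle, 2.30, 1.64, 2.97 and 0.942 in 2d, 120, 132 and 49.9 in 6d, and 3.15, 2.29, 4.23 and 71.3 in 12d. Every 6d mouse thus exceeded every vehicle and 2d mouse for both genes, and in 12d only the 4th mouse was at a similar level. Tnnt2 rose at 6d against vehicle by 7.17 ± 0.56 on the log2 scale (adjusted p = 0.00106, edgeR) and Tnni1 by 6.39 ± 0.65 (adjusted p = 0.00213, edgeR). Tnnt1 was at 3.81, 1.22 and 3.56 RPKM in vehicle, 4.52, 3.29, 3.22 and 2.30 in 2d, 98.4, 209 and 94.0 in 6d, and 7.15, 4.95, 8.68 and 92.8 in 12d. It rose at 6d by 5.49 ± 0.56, and Tnnc1, at 97.6, 92.7 and 37.4 RPKM in 6d against 2.99, 1.20 and 3.19 in vehicle, rose by 4.88 ± 0.51. At 2d, by contrast, Tnnt1, Tnni1 and Tnnc1 had log2 fold changes of 0.15 ± 0.43, 0.73 ± 0.62 and 0.16 ± 0.46 and did not pass the test.

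From 2d to 6d, 9 of 45 members tested rose and 0 fell (background 4.68% of genes higher and 4.05% lower). With edgeR 15 members and 3858 of 14513 genes had an unadjusted p under 0.05 in either direction, and DESeq2 called 14 members higher and 3 lower. Without the 4th library of 2d, 14 of 44 rose and 5 fell (background 14.0% and 14.8%). The largest rises were those of Tnni1 (5.69 ± 0.49), Tnnt1 (5.35 ± 0.37) and Tnnt2 (5.23 ± 0.64). Tnnc1, Actc1, Mybph, Myl4, Myom3 and Lmod3 made up the other 6, so 6 of the 9 were thin filament genes. Scaled by the fibre genes described below, which shifted the median change of the members by -0.79, 6 rose and 2 fell. The comparison of 6d with 2d does not use the vehicle libraries.

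**Figure D2:**
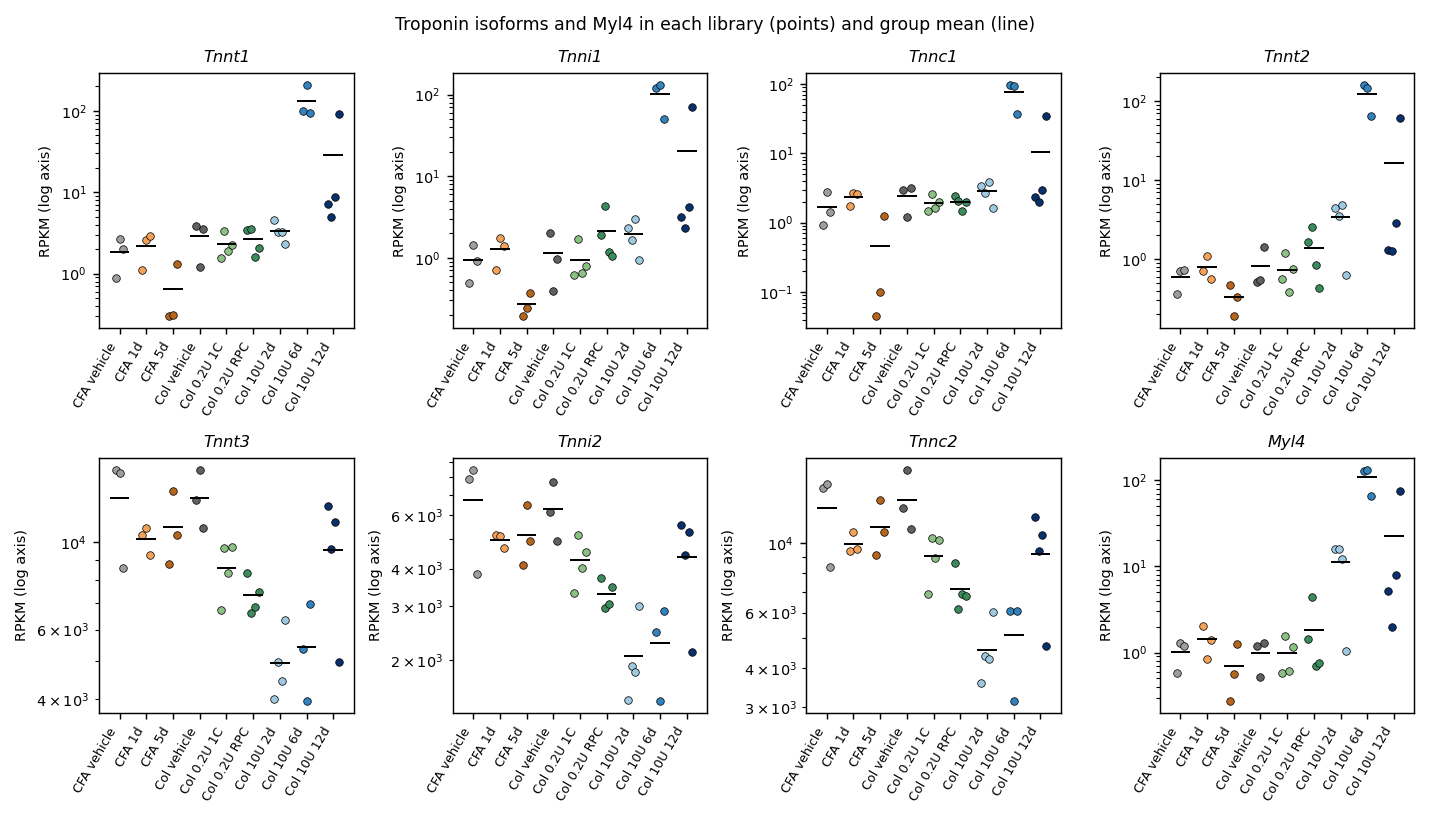
Each point is the level of a troponin isoform or of Myl4 in 1 library, in RPKM on a log axis, with libraries grouped by treatment on the x axis and a line at the group mean. The slow and cardiac forms (Tnnt1, Tnni1, Tnnc1, Tnnt2) and Myl4 are at most 4.42 RPKM outside 10U Col and reach 37.4 to 209 RPKM in the 3 mice of 6d and 34.8 to 92.8 RPKM in 1 of the 4 mice of 12d.

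Actc1, the actin of heart and of immature skeletal muscle, went down before it went up. It was at 61.2, 95.0 and 42.3 RPKM in Col vehicle and at 6.83, 8.91, 12.2 and 20.4 RPKM in 2d, all 4 below the lowest vehicle mouse. In 6d it was at 338, 312 and 316 RPKM, and in 12d at 261, 44.6, 175 and 255 RPKM. The change was -2.47 ± 0.41 at 2d (adjusted p = 0.0408, edgeR) and 2.27 ± 0.30 at 6d (adjusted p = 0.00427, edgeR), and the step from 2d to 6d was 4.75 ± 0.40. In 12d 3 of the 4 mice were above the vehicle range, with a log2 fold change of 1.52 ± 0.57 that did not pass the test. The 0.2U libraries varied most: 149, 104, 751 and 423 RPKM in 1C, all above vehicle, and 404, 82.1, 84.4 and 30.6 in RPC. In CFA 5d Actc1 was at 28.7, 37.5 and 50.0 RPKM against 103, 164 and 48.3 in CFA vehicle, with overlapping ranges and a log2 fold change of -1.38 ± 0.42 (adjusted p = 0.185, edgeR).

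Acta1, the adult skeletal actin, had no such rise. It was at 28088, 24884 and 13965 RPKM in Col vehicle, 6906, 8597, 8102 and 10700 in 2d, 8500, 6203 and 10286 in 6d, and 20689, 15776, 19396 and 8016 in 12d. All 2d and 6d mice were below every vehicle mouse, with log2 fold changes of -1.41 ± 0.46 and -1.43 ± 0.52 that did not pass the test (adjusted p = 0.0856 and 0.0742, edgeR), while DESeq2 called it lower at both times. The CArG box in capitals above stands 73 to 64 bases before the start in Acta1 and 47 to 38 bases before it in Actc1. At 2d every mouse was below the vehicle range for both genes, and at 6d every mouse was above it for Actc1 and below it for Acta1. The part of the motif in these levels was not tested.

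Of the 3 fast troponins 2 fell at 6d, as did both tropomodulins, which cap the pointed end of the thin filament. Tmod1 (tropomodulin 1) was at 157, 163 and 137 RPKM in Col vehicle, 26.5, 30.6, 31.1 and 53.1 in 2d, 40.2, 32.9 and 49.1 in 6d, and 84.8, 76.8, 83.2 and 44.2 in 12d. No mouse of 2d, 6d or 12d reached the lowest vehicle mouse. Its log2 fold change was -2.14 ± 0.28 at 2d (adjusted p = 0.0257, edgeR), -1.92 ± 0.23 at 6d (adjusted p = 0.00325, edgeR) and -1.04 ± 0.25 at 12d (adjusted p = 0.107, edgeR), and without the 4th library of 12d the last was called (-0.88, adjusted p = 0.046). Tmod4, the muscle tropomodulin, fell by 1.54 ± 0.36 on the log2 scale at 6d, and its change at 2d of -1.57 ± 0.36 did not pass (adjusted p = 0.054, edgeR). The fast troponins Tnni2 (-1.47 ± 0.43) and Tnnc2 (-1.43 ± 0.44) fell at 6d, whereas Tnnt3 (-1.26 ± 0.44, adjusted p = 0.0678, edgeR) did not pass the test. Of the tropomyosins, Tpm1 and Tpm2 did not pass at 2d or 6d, and Tpm3, classed here as the slow form, rose at 6d by 0.71 ± 0.20. Tpm3 was also above every vehicle library in CFA 1d (0.85 ± 0.30), where it did not pass (adjusted p = 0.924, edgeR). Counts per gene in bulk tissue do not show which fibres or other cells its reads came from. Nebulin (Neb), the long ruler protein of the thin filament, was at 106 to 227 RPKM in vehicle and 159 to 190 RPKM in 6d and did not pass the test (0.11 ± 0.40), and Lmod3 (leiomodin 3), which nucleates actin filaments, changed by 0.64 ± 0.22 (adjusted p = 0.0641, edgeR).

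Several counts share sequence with other genes. Exons of Tnnc2, Mybph and Tmod1 overlap exons of a gene on the opposite strand over 74%, 36.2% and 32.6% of their length (Ube2c, Adora1 and Tstd2), and the strand setting of the counting is not given in the sources used here. In 6d and Col vehicle Ube2c was at 0.186 to 17.5 CPM and Tstd2 at 13.8 to 17.7 CPM, while Tmod1 was at 130 to 643 CPM and Tnnc2 far higher. For Mybph the neighbour was not low. Adora1 was at 1.55 to 30.6 CPM in vehicle, where Mybph was at 1.57 to 4.49 CPM, and at 12.7 to 42.5 CPM in RPC, where Mybph was at 4.27 to 31.4 CPM. In 6d Adora1 was at 3.14 to 4.71 CPM and Mybph at 76 to 201 CPM. Tpm3 and Myl1 hold 21.6% and 15.1% of windows that occur elsewhere in the genome, so their levels are the less certain.

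Among thick filament genes the light chain Myl4, the embryonic and atrial essential light chain of myosin, rose most. It was at 1.19, 0.516 and 1.29 RPKM in Col vehicle, 15.8, 16.1, 12.3 and 1.05 in 2d, 129, 133 and 66.2 in 6d, and 5.22, 1.96, 7.89 and 75.9 in 12d. The first 3 mice of 2d were above every vehicle mouse and the 4th was within the vehicle range. The log2 fold change was 6.72 ± 0.50 at 6d (adjusted p = 0.000899, edgeR) and 3.43 ± 0.87 at 2d (adjusted p = 0.0604, edgeR), the latter called without the 4th library (3.80, adjusted p = 0.000891). Mybph, a myosin-binding protein of the thick filament, was at 41.6, 110 and 46.1 RPKM in 6d and 2.46, 1.71 and 0.857 in vehicle, and it rose by 5.27 ± 0.54. It was at 2.31, 3.50, 5.69 and 17.3 RPKM in 1C and 17.2, 5.81, 2.34 and 2.91 in RPC, where it did not pass edgeR's test and where the share of reads from the opposite-strand Adora1 was not tested.

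The adult slow light chains did not move with the slow troponins. Myl2, the slow and cardiac regulatory light chain, was at 0.0220 to 0.447 RPKM in 6d and 0.205 to 0.597 in vehicle, and Myl3, the slow and cardiac essential light chain, was at 0.157 to 0.730 RPKM in 6d and 0.480 to 0.667 in vehicle. Neither passed the test at 6d, at log2 fold changes of -1.42 ± 0.98 and -0.20 ± 0.59. In 12d Myl3 was at 1.33, 1.17, 1.24 and 2.67 RPKM, all 4 above the 3 vehicle mice (0.667, 0.509 and 0.480), with a log2 fold change of 1.56 ± 0.44 (adjusted p = 0.152, edgeR), or 1.18 without the 4th library (adjusted p = 0.155). In CFA 5d Myl3 had 0 reads in 2 of 3 libraries and 0.445 RPKM in the other.

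Mylk2, the skeletal myosin light chain kinase that phosphorylates the fast regulatory light chain, showed the largest fall at 6d. It was at 495, 598 and 346 RPKM in Col vehicle, 101, 92.9, 106 and 253 in 2d, 113, 33.5 and 97.3 in 6d, and 330, 358, 326 and 133 in 12d. Its log2 fold change at 6d was -2.57 ± 0.49 (adjusted p = 0.0123, edgeR), and it rose from 6d to 12d by 1.84 ± 0.51 (adjusted p = 0.0366, edgeR). In 1C it was at 175, 263, 107 and 118 RPKM, all below vehicle, with a log2 fold change of -1.52 ± 0.36 that did not pass (adjusted p = 0.251, edgeR). Mybpc2, the fast myosin-binding protein C, was at 1786, 1853 and 1393 RPKM in vehicle, 338, 431, 532 and 524 in 2d, 553, 163 and 541 in 6d, and 1368, 1149, 1211 and 446 in 12d. All 2d and 6d mice lay below the vehicle range, with changes of -1.91 ± 0.33 (adjusted p = 0.0456, edgeR) and -2.01 ± 0.52 (adjusted p = 0.0291, edgeR). The slow form Mybpc1, which in the masseter was at 437 to 692 RPKM in vehicle, changed by -0.08 ± 0.37 at 6d and did not pass the test. The fast light chains Myl1 and Mylpf had log2 fold changes of -2.27 ± 0.50 and -1.82 ± 0.46 at 2d, short of the threshold (adjusted p = 0.0532 and 0.0604, edgeR), and were called without the 4th library.

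Titin (Ttn), the molecular spring that spans from Z-disc to M-band, was at 36.8, 17.2 and 33.8 RPKM in Col vehicle and 28.2, 23.8 and 27.8 in 6d and did not pass the test in any of the 9 comparisons of 2 groups. The M-band members parted. Myom1 and Myom2 (myomesins of the adult M-band) fell at 2d (log2 fold changes -1.52 ± 0.29 and -1.53 ± 0.24), and Myom1 and Cmya5, a large costamere and M-band associated protein, fell at 6d (-1.05 ± 0.30 and -1.16 ± 0.34). Myom3, the myomesin of slow and intermediate fibres, was at 43.3, 10.7 and 17.2 RPKM in vehicle, 37.7, 26.9, 21.6 and 39.9 in 2d, 47.1, 113 and 99.3 in 6d, and 22.9, 24.6, 30.3 and 32.3 in 12d. All 3 mice of 6d were above all others of the Col series, by 1.83 ± 0.56 against vehicle (adjusted p = 0.0456, edgeR), and the level fell from 6d to 12d (log2 fold change -1.63 ± 0.30, adjusted p = 0.0153, edgeR).

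At the Z-disc the calsarcins (myozenins), which tie alpha-actinin to calcineurin, parted by fibre type in the same way. Myoz1, a fast-fibre form, was at 3006, 3522 and 1694 RPKM in vehicle, 288, 428, 396 and 1361 in 2d, 981, 420 and 883 in 6d, and 2829, 2338, 2425 and 1210 in 12d. Myoz3, also of fast fibres, was at 437, 515 and 388 RPKM in vehicle, 29.9, 65.4, 64.4 and 201 in 2d, 155, 41.1 and 175 in 6d, and 545, 400, 529 and 216 in 12d. Both were below vehicle in every mouse of 2d and 6d, and at 12d only the 4th mouse stayed below the vehicle range. They fell at 6d (log2 fold changes -1.85 ± 0.45 and -1.86 ± 0.49, adjusted p = 0.0245 and 0.0308, edgeR), and from 6d to 12d rose by 1.55 ± 0.43 and 1.79 ± 0.55. Myoz2, the slow and cardiac form, was at 7.81, 1.86 and 4.96 RPKM in vehicle, 21.1, 17.7, 15.3 and 6.09 in 2d, 22.7, 19.6 and 23.9 in 6d, and 3.66, 4.26, 7.73 and 14.4 in 12d. It rose at 6d by 2.14 ± 0.46 (adjusted p = 0.0169, edgeR) and fell by 1.54 ± 0.44 on the log2 scale to 12d (adjusted p = 0.0391, edgeR). In the 0.2U groups Myoz3 was at 268, 306, 211 and 284 RPKM in 1C and 310, 246, 261 and 253 in RPC, all below the lowest vehicle mouse, with log2 fold changes of -0.73 ± 0.19 and -0.72 ± 0.16 that did not pass (adjusted p = 0.261 and 0.265, edgeR).

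Actn3, the fast-fibre alpha-actinin that cross-links thin filaments, was at 1873, 2424 and 1668 RPKM in Col vehicle, 504, 473, 539 and 646 in 2d, 957, 1100 and 1228 in 6d, and 1547, 1086, 1174 and 630 in 12d. It fell at 2d (log2 fold change -1.91 ± 0.32, adjusted p = 0.0408, edgeR), while its change at 6d was -0.88 ± 0.34 (adjusted p = 0.0888, edgeR). RPC values of 843, 1013, 895 and 1155 RPKM were all below vehicle, by -1.0 ± 0.24 on the log2 scale (adjusted p = 0.265, edgeR). Actn2, the alpha-actinin found in all striated fibres, was at 151 to 345 RPKM in vehicle and 140 to 291 RPKM over the 10U groups and passed no test. Tcap (telethonin), which caps titin at the Z-disc, fell at 6d (log2 fold change -1.67 ± 0.34). Myot (myotilin), Ldb3 and Xirp2, further actin and alpha-actinin binding proteins of the Z-disc, passed no test in the 9 comparisons of 2 groups.

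**Figure D3:**
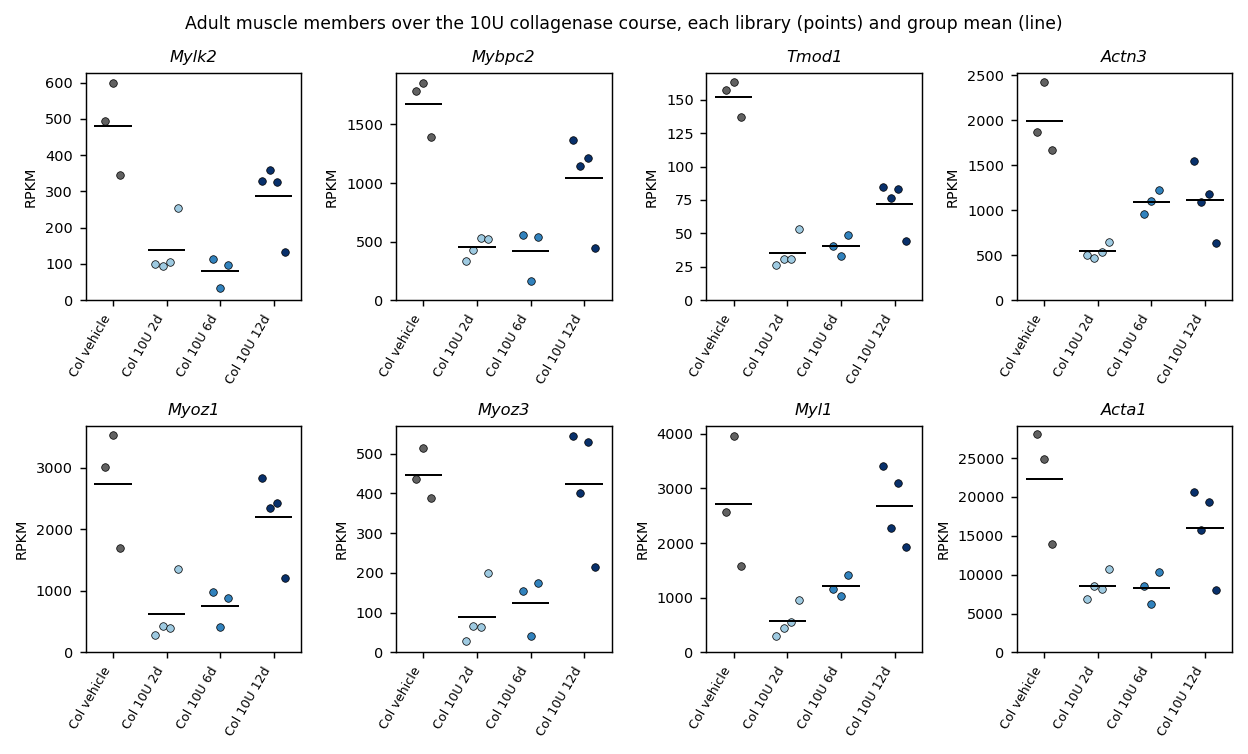
Points give the RPKM of 8 adult muscle members in each library of Col vehicle and of 10U Col 2d, 6d and 12d, on linear axes from 0, with a line at the group mean. In each panel every mouse of 2d and of 6d lies below every vehicle mouse, and at least 3 of the 4 mice of 12d lie above the 6d group in all panels but that of Actn3.

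A second set of Z-disc genes was high in some mice of CFA 1d and of 10U Col 2d. Csrp3 (muscle LIM protein), Flnc (filamin C), Xirp1 (Xin) and Pdlim3 bind actin or alpha-actinin at the Z-disc and its repair sites. Csrp3 was at 783, 127 and 423 RPKM in CFA 1d and 27.2, 90.4 and 125 in CFA vehicle, and Flnc at 917, 130 and 362 RPKM in CFA 1d and 147, 134 and 93.7 in vehicle. The 2nd mouse of CFA 1d was near the vehicle range for both, and the log2 fold changes of 2.43 ± 0.75 and 1.90 ± 0.64 did not pass the test (adjusted p = 0.924 for both, edgeR). In 10U Col 2d, Csrp3 was at 721, 507, 629 and 269 RPKM against 242, 49.8 and 39.2 in vehicle, and Flnc at 429, 316, 432 and 96.1 RPKM against 146, 57.7 and 70.2. Xirp1 was at 274, 202, 234 and 45.3 RPKM in 2d and 52.1, 32.1 and 34.9 in vehicle. The first 3 mice of 2d were above vehicle for all 3 genes, and the 4th was within the vehicle range for Flnc and Xirp1. None of the 4 genes was called at 2d, at log2 fold changes of 0.76 to 2.22, and without the 4th library of 2d all 4 were called, with Xirp1 at 2.53 (adjusted p = 0.00124) and Csrp3 at 2.44 (adjusted p = 0.0323). At 6d Xirp1 was at 30.5, 36.3 and 53.5 RPKM and Flnc at 81.3, 108 and 101, both within or near the vehicle range, and Csrp3 was at 126, 340 and 228, above that range in the 2nd mouse. Pdlim3 did not return in this way: it was at 266, 427 and 415 RPKM in 6d against 244, 212 and 154 in vehicle, above vehicle in all 3 mice, at a log2 fold change of 0.84 ± 0.28 (adjusted p = 0.0553, edgeR). Its change from 2d to 6d was 0.08 ± 0.39, and it fell from 6d to 12d (log2 fold change -0.79 ± 0.23, adjusted p = 0.0432, edgeR).

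**Figure D4:**
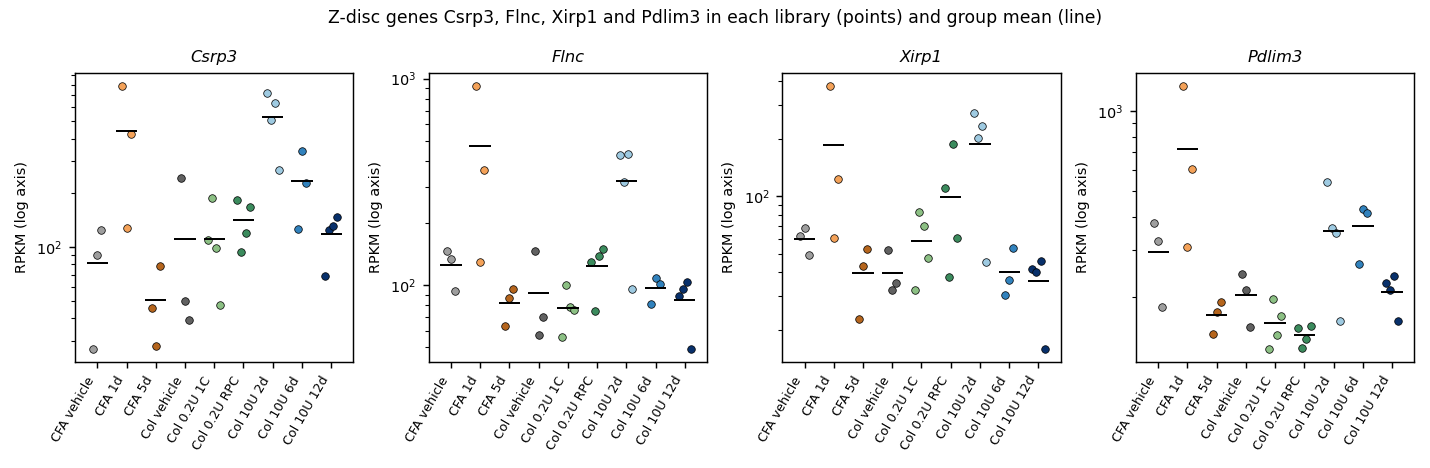
RPKM of Csrp3, Flnc, Xirp1 and Pdlim3 in each library (points, log axis) by group, with a line at the group mean. The 1st and 3rd mice of CFA 1d and the first 3 mice of 10U Col 2d are high for all 4 genes, while the 2nd mouse of CFA 1d and the 4th of 2d lie close to vehicle.

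Desmin (Des), the intermediate filament that links Z-discs of neighbouring myofibrils, was at 1071, 964 and 747 RPKM in Col vehicle, 1657, 1463, 1442 and 630 in 2d, 1233, 1378 and 1323 in 6d, and 759, 706, 797 and 536 in 12d. All 6d mice were above vehicle, at a log2 fold change of 0.48 ± 0.33 that did not pass, and the level fell from 6d to 12d (log2 fold change -0.88 ± 0.27, adjusted p = 0.045, edgeR). In 1C and RPC it ranged from 420 to 701 RPKM, below all 3 vehicle mice, and did not pass edgeR's test.

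From 6d to 12d, 8 of 46 members rose (Myl1, Mylk2, Myoz1, Myoz3, Tcap, Tmod4, Smpx and Cmya5) and 5 fell (Tpm3, Myom3, Myoz2, Pdlim3 and Des), near the background of 13.4% of genes higher and 13.0% lower. Scaled by fibre genes, which shifted the median change of the members by -0.93, 0 rose and 8 fell. Both counts depended on the 4th library of 12d. Without it 19 of 45 rose and 13 fell, against 25.0% of all genes higher and 29.1% lower, and the 13 then included Tnnt2 (-6.10), Mybph (-5.11), Tnni1 (-4.95), Tnnc1 (-4.94), Myl4 (-4.43) and Tnnt1 (-4.26, log2 fold changes). In that library these 6 genes were at 30.0 to 92.8 RPKM and in the other 3 libraries of 12d at 1.27 to 8.68. It also held more of the myogenic cell markers (239 against 143 to 147 CPM), macrophage markers (236 against 44.8 to 66.7 CPM) and fibroblast markers (13703 against 2697 to 4560 CPM) and fewer of the fibre genes outside the sarcomere (38868 against 71763 to 85532 CPM). The part of these cell types in its member levels was not tested.

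The 4th library of 2d likewise decided the calls at 2d. Without it 8 of 45 members rose and 23 fell (background 17.9% and 18.4%), and the 8 were Myl4, Xirp1, Csrp3, Tnnt2, Flnc, Myoz2, Tpm3 and Pdlim3. Its fibre genes outside the sarcomere summed to 47380 CPM against 13460 to 18382 in the other 3, its myogenic markers to 114 against 219 to 294 CPM, and its macrophage markers to 173 against 258 to 450 CPM. The salivary gland sum was 115543 CPM in it and 68889, 85580 and 28.1 CPM in the others. The 3rd library, at 28.1 CPM, had Tmod1 at 31.1 and Myl4 at 12.3 RPKM, beside 26.5 and 30.6 and 15.8 and 16.1 RPKM in the 1st and 2nd.

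Grouped by isoform class, the 9 fast members (Tnnt3, Tnni2, Tnnc2, Tpm1, Myl1, Mylpf, Myoz1, Mybpc2 and Actn3) had log2 fold changes below 0 in every vehicle comparison but 12d, where 8 of 9 were below 0. Their median was -0.42 in CFA 1d, -0.20 in CFA 5d, -0.58 in 1C, -0.80 in RPC, -1.82 in 2d, -1.26 in 6d and -0.47 in 12d, with 2 called lower at 2d and 4 at 6d. Of the 8 slow members 5 rose at 6d (Tnnt1, Tnni1, Tnnc1, Tpm3 and Myoz2), with a class median of 1.42. Of the 5 developmental or cardiac members 4 rose (Actc1, Tnnt2, Myl4 and Mybph), with a median of 5.27. The slow median was 0.16 in CFA 1d, -1.47 in CFA 5d (7 tested), -0.27 in 1C, -0.07 in RPC, 0.16 in 2d and 1.11 in 12d. The developmental median was 0.38, -0.76, 0.02, 0.86, 1.96 and 2.47 in the same order. In these 6 comparisons only Actc1 of the 2 classes was called, lower at 2d. The 9 fibre genes outside the sarcomere moved with the fast class, at a median of -2.12 at 2d and -1.43 at 6d, and 4 of the 9 (Ckm, Pygm, Eno3 and Cacna1s) were called lower at 6d. In bulk tissue, fewer fibres and less RNA per fibre cannot be told apart. When libraries were scaled by those 9 fibre genes, a choice made after the data were seen, the fast class median became 0.14 in CFA 1d, 0.14 in CFA 5d, 0.04 in 1C, 0.34 at 2d and 0.13 at 6d, so that its direction turned in these 5 comparisons, and stayed below 0 in RPC (-0.17) and 12d (-0.06). Since those 9 genes had moved with the fast class, this scaling brings the class median near 0 by construction, and the turn decides nothing. The same scaling made the developmental median 6.97 at 6d. Calls over all members became 22 higher and 0 lower at 2d and 25 higher and 1 lower at 6d. This scaling shifted the median of the members by 2.20 at 2d and 1.42 at 6d, and that of all genes likewise upward. These counts are therefore not a result about the members. Under scaling by total counts in place of TMM, 13 members were called higher and 6 lower at 6d and 0 higher and 2 lower at 2d, and all 9 fast members stayed below 0 at 2d and 6d.

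The ratio of 2 isoforms within a library does not depend on how libraries are scaled. The log2 ratio of Tnni1 to Tnni2, per exon length, was -11.55, -14.21 and -12.29 in Col vehicle, -9.32, -10.17, -9.26 and -11.62 in 2d, -4.37, -3.47 and -5.86 in 6d, and -10.78, -10.91, -10.28 and -4.90 in 12d. The 6d mice were above all vehicle mice, and the difference of the mean log2 ratios was 8.12 (exact permutation p = 0.1, two-sided, the smallest possible with 3 against 3, and 0.232 after Benjamini-Hochberg adjustment over 130 ratio tests). The ratio of Tnnt1 to Tnnt3 differed by 6.88, that of Tnnc1 to Tnnc2 by 6.40, that of Tnnt2 to Tnnt3 by 8.53 and that of Myl4 to Myl1 by 7.88. Of the 13 pairs, 10 did not overlap with vehicle at 6d, all toward the slow or developmental form, as did 7 at 2d (with 1 other pair lower), 5 at 12d, 4 in RPC, 3 in 1C and 1 in CFA 1d, while in CFA 5d 2 were lower. No such share was computed over other gene pairs. Of single genes at 6d, 24.8% lay above and 22.5% below every vehicle library. Some pairs share a partner (Tnnt3, Myl1 or Mybpc2), so the pairs are not independent. The 4 pairs in RPC were Mybpc1/Mybpc2, Tpm3/Tpm1, Actn2/Actn3 and Mybph/Mybpc2, and no troponin pair was apart in RPC or 1C. A ratio also rises where only its fast partner falls, as for Mybpc1/Mybpc2 at 6d, where Mybpc1 itself did not pass the test. No ratio could pass the adjusted threshold, so that outcome decides nothing. The smallest possible exact permutation p is 0.1 for 3 against 3, 0.0571 for 4 against 3 and 0.0286 for 4 against 4, and the last were too few. The lowest adjusted p over the 130 tests was 0.218. At 12d the Tnnt1/Tnnt3 and Tnni1/Tnni2 ratios were still above vehicle in all 4 mice, by 2.85 and 3.46 on the log2 scale (exact permutation p = 0.0571, two-sided, the smallest possible with 4 against 3). Without the 4th library of 12d the differences were 1.62 and 2.03, with the other 3 mice still above vehicle. Even in 6d the fast or adult form was the more abundant in the 5 pairs named here, since those ratios were below 0.

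**Figure D5:**
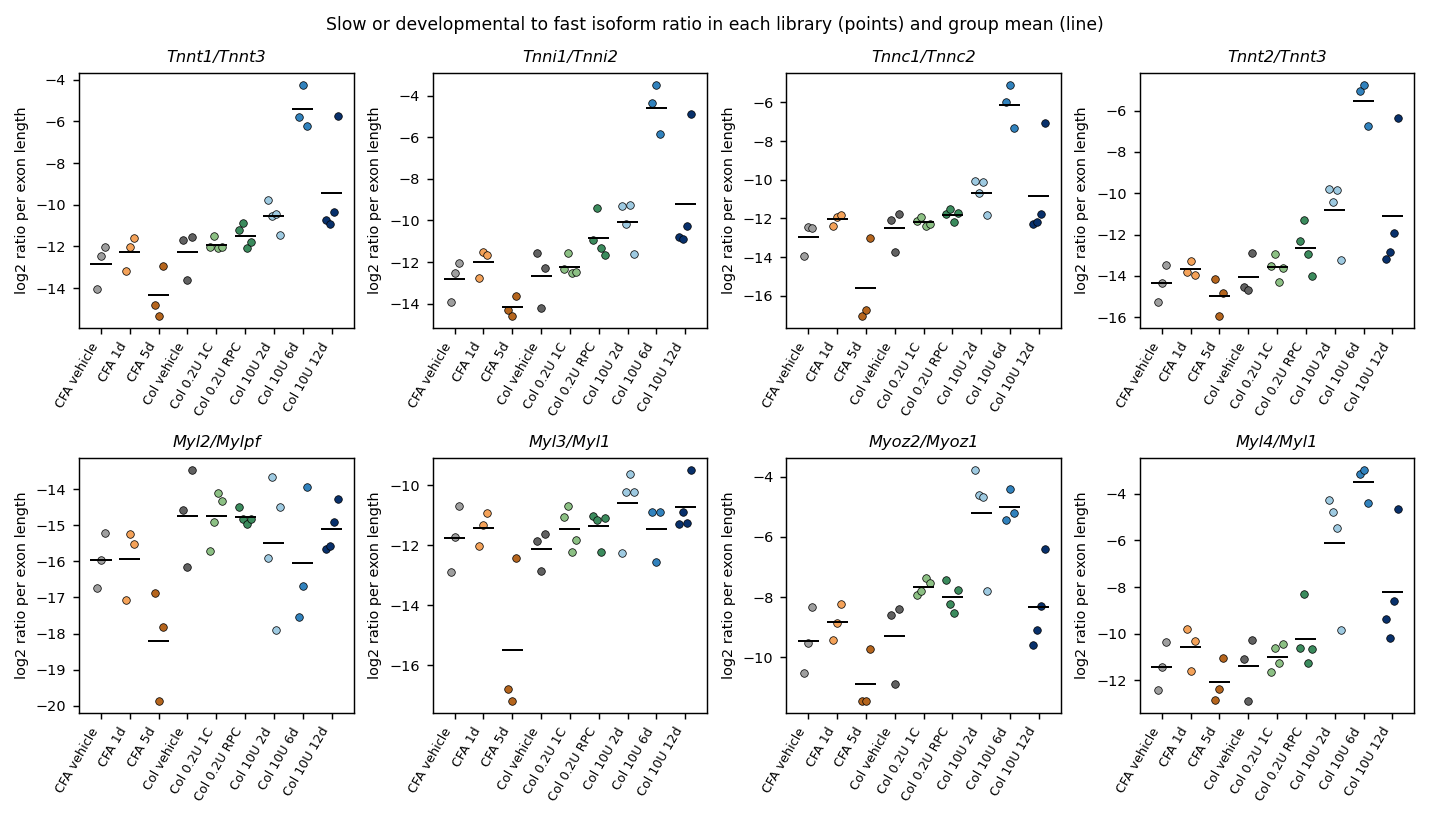
Log2 ratio per exon length of 8 slow or developmental isoforms to their fast partners in each library (points) by group, with a line at the group mean. Troponin ratios of the 3 mice of 6d lie at -7.34 to -3.47, above every library of the other groups except the 4th of 12d, whereas Myl2/Mylpf and Myl3/Myl1 of 6d overlap with vehicle.

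To ask whether the changes after 10U Col differed from those after CFA, the change at 6d was compared with the change at CFA 5d in an interaction contrast, each against its own vehicle. The difference was higher for 9 of 46 members and lower for 3 (background 4.34% and 6.96%). Tnni1 differed by 8.13 ± 0.86 on the log2 scale (adjusted p = 0.0016, edgeR), Tnnt2 by 7.96 ± 0.76 (adjusted p = 0.000943, edgeR) and Myl4 by 7.24 ± 0.80 (adjusted p = 0.0016, edgeR). In CFA 5d Tnni1 was at 0.192, 0.244 and 0.371 RPKM, below the 0.496, 1.42 and 0.905 of CFA vehicle, at -1.74 ± 0.51 (adjusted p = 0.172, edgeR), so part of its difference lay in the CFA arm. The 3 that differed downward were Mylk2 (-3.06 ± 0.57), Myoz3 (-2.15 ± 0.60) and Tmod1 (-1.78 ± 0.31). Scaled by total counts, 15 differed upward and 2 downward. For 2d against CFA 1d no member passed (background 0.0541% higher and 0.0406% lower), with 14 members and 1011 of 14794 genes at an unadjusted p under 0.05. The lowest adjusted p of a member was at Tmod1 (-1.81 ± 0.42, adjusted p = 0.22, edgeR), and DESeq2 called 2 members lower. The next lowest unadjusted p there was that of Mybpc2 (-1.68 ± 0.52).

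Of 37 further genes of the sarcomere and its assembly listed with the members, 36 were tested. At 6d 5 of the 36 rose and 5 fell, a share near that over all genes (14.0% higher and 13.3% lower): Ankrd1 (6.42 ± 0.67) and Ankrd2 (2.67 ± 0.44), ankyrin repeat proteins that bind titin in stretched or injured muscle, the essential light chain Myl6b (adjusted p = 0.0016, edgeR), Obsl1 (1.12 ± 0.16) and the small heat shock protein Hspb7 (1.60 ± 0.46) were higher. Those lower included Speg, a large kinase of striated muscle, Fhl3, Trim54 and Mylk4 (-2.39 ± 0.60). At 2d 1 of the 36 rose, Ankrd1, at 597, 303, 437 and 2.80 RPKM against 0.790, 0.339 and 1.09 in vehicle, by 8.74 ± 1.72. The genes around them at 6d included embryonic and perinatal myosin heavy chains Myh3 (128, 143 and 74.4 RPKM against 2.81, 3.91 and 2.97 in vehicle, 5.13 ± 0.33) and Myh8 (2.28 ± 0.60), while the adult fast Myh4 was lower (-2.23 ± 0.60). Of 6 markers of myogenic cells 3 rose at 6d, among them Myog, the myogenic factor that binds E-boxes, at 146, 190 and 128 RPKM against 5.22, 5.62 and 2.24 in vehicle. Summed, the 6 were at 491 to 707 CPM in 6d and 100 to 114 CPM in vehicle. Macrophage markers were at 265 to 478 CPM in 6d and 35.5 to 99.7 CPM in vehicle, and fibroblast markers at 8275 to 13637 CPM and 1144 to 5830 CPM. The part of these cell types in the changes of the members at 6d was not tested.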

How the data were processed

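Bulk poly(A) RNA was read from 31 masseter libraries in 9 groups, made with a kit that marks strand. The authors deposited raw read counts per gene, 1 table per library, and the submitters' processing notes name bcl2fastq, TopHat2, HTSeq and mm9. The versions and the strand setting of the counting are not given in the sources used here. Lines for reads assigned to no gene were left out of library sizes. CPM and RPKM were computed here from the deposited counts, with TMM scaling over all libraries and exon lengths from an mm9 annotation. Ratio values are log2 of counts plus 0.5, per exon length.

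A gene entered a test where 3 or more of the compared libraries held 10 or more of its reads. The test was that of edgeR 4.0.16 (R 4.3.3), the quasi-likelihood test, with Benjamini-Hochberg adjustment over all genes tested and a threshold of 0.05. Each comparison used only its own groups. DESeq2 1.42.0, other scalings, no filter, a shared fit, pooled vehicle groups, a replicate block and leaving out each library were tried as alternatives. Isoform ratios were compared by exact permutation tests over libraries, two-sided. Tables and plots were made with Python 3.11.15, pandas 2.3.3, scipy 1.17.1 and matplotlib 3.10.9.

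Depth was 14843778 to 29076671 counts on genes per library, and no 2 libraries were identical. On simulated counts with 200 changed genes, the test recovered 134 with 5 wrong calls of 139 in the design of CFA 5d (13686 genes) and 143 with 16 wrong calls of 159 in that of 2d (13882 genes). 1 isoform pair and 1 further gene are not reported here. The members, the gene lists and the tests were chosen with earlier results of these data known. Members were given with every library's value where they were among the 3 called with the largest change in each direction of a comparison, or, where none was called, the 2 with the lowest unadjusted p, and further members were added to describe the roles. Same-numbered libraries deviated together in every pair only in CFA 1d against its vehicle (correlations 0.118, 0.247 and 0.449). In RPC against vehicle the correlations were 0.528, 0.173 and -0.245. The labels number the libraries of every group and name no pairing. The replicate block gave no call among the members in CFA 1d.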

Additional observations from a re-analysis of the deposited data

Results flagged for a closer look

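Within groups of 4 mice, the highest or lowest library was examined for its gap to the nearest other, as a share of the group's range. Of 120 such groups of values, 19 passed Dixon's critical value, where chance gives about 1 in 20. The 4th library of 12d accounted for 11 of them. There Tnni1 (0.850), Tnnt2 (0.842) and Myl3 (0.868) stood high, and Mybpc2 (0.845), Mylk2 (0.905) and Tmod1 (0.848) stood low. The ratios Tnnt1/Tnnt3 (0.887), Tnni1/Tnni2 (0.895), Tnnc1/Tnnc2 (0.903), Tpm3/Tpm1 (0.876) and Mybph/Mybpc2 (0.932) stood high in the same library. In the 4th library of 2d, Des (0.856), Myl4 (0.882) and the ratio Tpm3/Tpm1 (0.940) stood low and Mylk2 (0.868) high. In the 0.2U groups Myoz2 was high in the 2nd library of 1C (0.830), Tnnt1/Tnnt3 was high in the same library (0.956), Myoz1 was high in the 4th library of RPC (0.830) and Myl3/Myl1 was low in the 3rd of RPC (0.904).

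The change at 6d after 10U Col and the change at CFA 5d, each against its own vehicle, differed by edgeR's interaction test for 12 members. The differences in log2 fold change were 8.13 for Tnni1, 7.96 for Tnnt2, 7.24 for Myl4, 6.97 for Tnnt1, 6.70 for Tnnc1, 6.02 for Mybph, 3.64 for Actc1, 3.62 for Myoz2 and 1.57 for Pdlim3. They were -3.06 for Mylk2, -2.15 for Myoz3 and -1.78 for Tmod1. Agent, day and the ambiguous read share differ together between these arms and cannot be told apart. Salivary gland markers also moved oppositely in them, at 128536 to 160676 CPM in CFA 5d against 103 to 13626 CPM in its vehicle, and at most 33.3 CPM in 6d against 85.2 to 143515 CPM in its vehicle, and their part in the differences was not tested.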

How the results depend on the processing

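Counts of called members are given as higher and lower. Under DESeq2 size factors in edgeR and with no filter on low counts, all 22 counts stayed within 1.5 times. With DESeq2 they became 1 higher in CFA 1d, 1 lower in CFA 5d, 3 and 6 in 1C, 1 and 11 in RPC, 7 and 21 at 2d, 21 lower at 6d, 2 and 1 at 12d, 14 and 3 in 6d against 2d, 16 and 8 in 12d against 6d, 2 lower for the difference of changes at 2d and 8 lower for that at 6d. In the shared fit of all libraries they became 7 and 23 at 2d, 18 lower at 6d, 4 and 1 at 12d, 2 lower in 6d against 2d, 8 lower in 12d against 6d and 1 lower for the difference of changes at 2d. With both vehicle groups pooled they became 1 lower in 1C, 7 and 24 at 2d, 19 lower at 6d and 4 and 1 at 12d. Under total counts they became 2 lower at 2d, 6 lower at 6d and 15 higher for the difference of changes at 6d, and the median of all genes shifted by 0.38 at 2d and 0.54 at 6d. Requiring a fold over 2 and over 1 RPKM left 2 lower in 12d against 6d.

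Scaling by fibre genes and the use of 12d as reference were chosen after seeing the data. With fibre genes the counts became 22 and 0 at 2d, 25 and 1 at 6d, 2 lower in 6d against 2d, 0 and 8 in 12d against 6d and 1 lower for the difference of changes at 6d. Mybpc2 at 2d turned to 0.30 on the log2 scale under it, and the median of all genes shifted by 2.25 at 2d and 1.45 at 6d. With 12d as reference 2 were higher at 2d and 5 at 6d. With the replicate block the counts became 9 and 23 at 2d, 3 lower at 6d, 1 higher at 12d, 2 lower in 6d against 2d, 22 and 13 in 12d against 6d and 0 lower for the difference of changes at 6d. In each comparison of 2 groups outside CFA 1d, at least 1 pair of same-numbered libraries had a correlation below 0. A pairing by number was thus not shown there. The 4th libraries carry no weight in the replicate block fit where the other group has 3. The cause of these changes was not tested.

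Leaving out each library in turn gave 0 to 2 lower in CFA 5d, 0 to 1 lower in 1C, 0 to 8 higher and 0 to 23 lower at 2d, 7 to 10 higher and 2 to 11 lower at 6d, and 0 to 1 lower at 12d. It gave 6 to 14 higher and 0 to 5 lower in 6d against 2d, 0 to 19 higher and 0 to 13 lower in 12d against 6d, 0 to 1 higher and 0 to 2 lower for the difference of changes at 2d, and 8 to 12 higher and 2 to 3 lower for that at 6d. The low ends were 0 without the 1st or 2nd Col vehicle or the 1st, 2nd or 3rd 2d library (2d), 2 without the 1st 6d library (6d, lower), 0 without the 1st 12d library (12d against 6d, higher) and 0 without the 2nd 6d library (lower). CFA 5d gave 2 without the 3rd CFA vehicle and 1C gave 1 without its 2nd library. Of 352 values of single members under alternatives, 291 kept direction and call, 42 lost and 18 gained the call and 1 turned. Of 390 ratio values 1 moved. Levels under about 1 RPKM, such as those of Myl2, Myl3 and Nebl, rest on few reads.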
